A study of Homo sapiens with 6 samples.

Results

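The mevalonate pathway up to squalene epoxide was followed through 9 of its enzymes in 3 related human lung cancer cell lines. The genes were ACAT2, HMGCS1, MVK, PMVK, MVD, IDI1, FDPS, FDFT1 and SQLE, taken by symbol and in pathway order from 26485 genes, and all 9 were listed on 1 line in every table. Messenger RNA of bulk cultures was sequenced, with 2 libraries each from PC9, PC9-BrM4 and PC9-AMG, all grown conventionally and with no added agent named in the labels. PC9 came from a lung adenocarcinoma and carries a mutant EGFR, and PC9-BrM4 and PC9-AMG are sublines under its name. Earlier work describes PC9-BrM4 as derived from brain metastases, which the labels do not state, and the meaning of AMG is given in none of these sources. The tables of the PC9-AMG samples carry EMG in their names and were assigned by the sample records. Levels are in TPM, a unit scaled by transcript length and by the total of the library.

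The mevalonate pathway builds isoprenoid units from acetyl-CoA. Its products are used for cholesterol, for the lipid anchors of small GTPases, for dolichol and for the side chain of coenzyme Q. Transcription of most of its genes is raised when cells are short of sterols, by the factor SREBP2 acting together with NF-Y and Sp1. In epithelial tumors the pathway supplies membrane sterol and prenyl groups to dividing cells.

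The libraries rested on 2.66 to 4.39 gigabases of aligned sequence. Epithelial markers were high in all 6 libraries, with KRT8 at 3085 to 4870 TPM and EPCAM at 665 to 726 TPM. The lung lineage markers NKX2-1, SFTPB and NAPSA lay below 1 TPM, so the lung origin of the cells rests on the labels. Of the 9 markers of other cell types, COL1A2 and RBFOX3 were listed at 0 throughout, and PTPRC, VWF, GFAP and AQP4 stayed below 1 TPM. PECAM1 lay at 1.95 ± 0.104 TPM in PC9, 1.03 ± 0.0771 TPM in PC9-BrM4 and 1.47 ± 0.00580 TPM in PC9-AMG, and it fell in PC9-BrM4 (log2 -0.54, limma adjusted p = 0.00495). CD68 lay at 49.1 ± 0.162, 41.2 ± 0.135 and 40.0 ± 0.144 TPM and fell in both sublines (log2 -0.25 and -0.29, limma adjusted p = 0.00443 and 0.00168). COL1A1 was at 4.89 ± 0.177 TPM in PC9, 4.05 ± 0.528 TPM in PC9-BrM4 and 14.6 ± 0.2395 TPM in PC9-AMG (SD, n = 2), higher in PC9-AMG than in PC9 (log2 1.41, limma adjusted p = 3.84e-05), and the part of these 3 markers in the results below was not tested. In bulk RNA, fewer cells that express a gene and less RNA per cell cannot be told apart.

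The members formed an abundant set in every line, and most of them were lowest in PC9-BrM4 and highest in PC9-AMG. Summed over the 9 genes, the level was 2256.7 and 2295.4 TPM in the PC9 libraries. It was 1799.7 and 1752.7 TPM in PC9-BrM4, and 2887.2 and 2704.0 TPM in PC9-AMG. The 3 lines did not overlap in this sum, which took 0.175% to 0.289% of the TPM total of a library. The order PC9-BrM4, PC9, PC9-AMG from low to high held for the means of 7 of the 9 members. For HMGCS1 and MVK, among these 7, the PC9 and PC9-AMG libraries overlapped, and HMGCS1 lost the order without PC9-AMG replicate 1 (log2 -0.08 against PC9). IDI1, which isomerizes the first isoprenoid unit, was lowest in PC9-BrM4 but highest in PC9. PMVK, the phosphomevalonate kinase, had the opposite order to the 7, with PC9-AMG lowest and PC9-BrM4 highest.

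**Figure D1:**
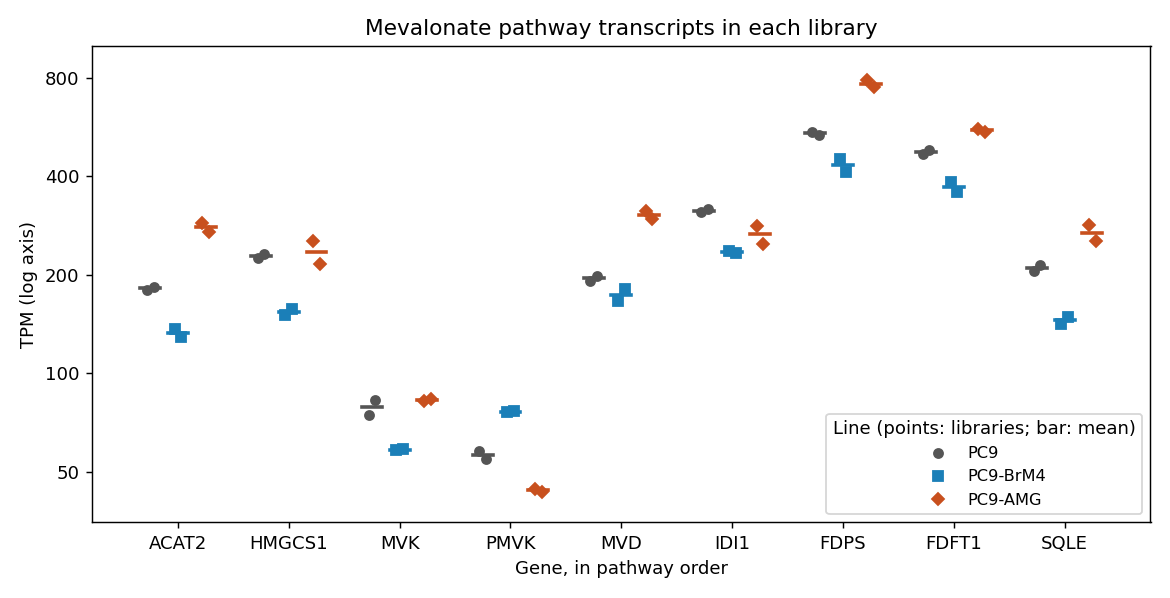
TPM of the 9 genes on a log axis, in pathway order, with a point for each library and a bar at the mean of the 2 libraries of a line. PMVK is the gene whose PC9-BrM4 libraries lie above those of PC9 and whose PC9-AMG libraries lie below them.

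The comparisons asked how the sublines differ from the parental line and from each other. In PC9-BrM4 against PC9, 8 of the 9 members fell and 1 rose, where 23.1% of the 14195 tested genes were called lower and 23.4% higher, together 46.6% (limma, adjusted p under 0.05). Libraries were fully apart between the lines for 9 of the 9, as for 75.2% of all tested genes. The median log2 fold change of the members was -0.42, beside -0.002 over all tested genes. In PC9-AMG against PC9, 5 members rose, 2 fell and 2 did not pass, where 27.8% of genes were called higher and 27.7% lower, together 55.5%. The libraries did not overlap for 7 of the 9, as for 79.8% of all. Here the median was 0.22, beside -0.006 over all tested genes. In PC9-AMG against PC9-BrM4, 8 members rose and 1 fell, where 28.1% of genes were called higher and 28% lower, together 56.1%. The libraries did not overlap for 9 of the 9, as for 77.5% of all. This median was 0.60, again beside -0.006.

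The sizes were moderate. Past 1.5-fold lay 0 members in PC9-BrM4 against PC9, 2 in PC9-AMG against PC9 and 6 in PC9-AMG against PC9-BrM4, where 12.7%, 16.9% and 18.5% of all tested genes did. The first and second comparisons share the PC9 libraries, so their values are set side by side below and not compared. Errors are SDs of 2 libraries (n = 2), standard errors (SE) are those of the limma fit, and adjusted p are Benjamini-Hochberg values over all tested genes. The labels do not say that the replicates were separate cultures. A p-value here reflects the spread between the 2 libraries of a line, pooled over all lines and drawn toward the trend of all tested genes. That spread may be technical.

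**Figure D2:**
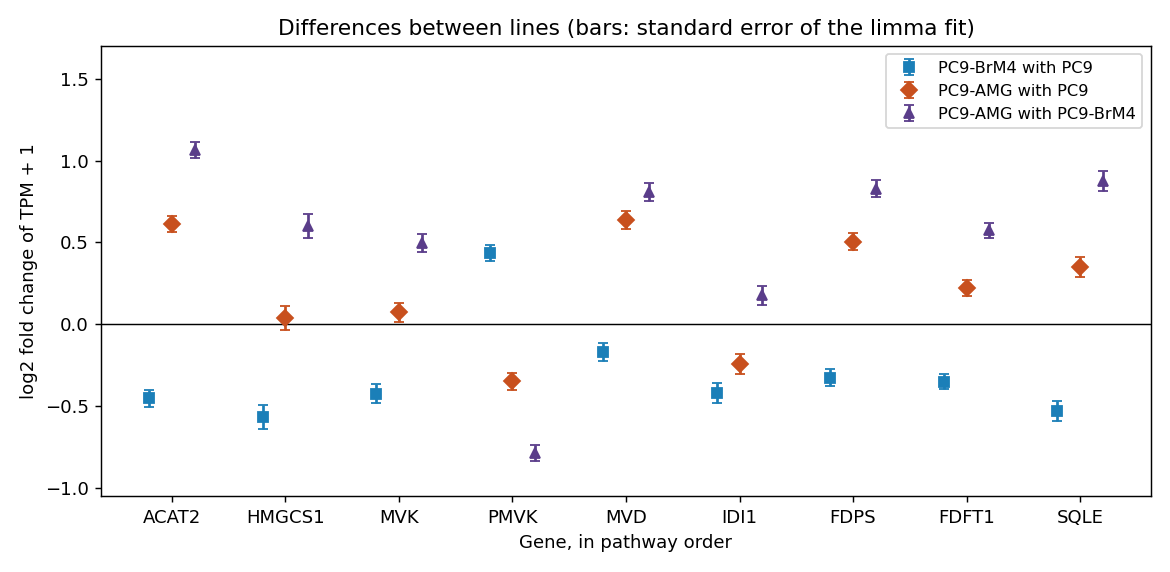
Log2 fold change of TPM + 1 for each gene in the 3 comparisons, with bars for the standard error of the limma fit. In PC9-BrM4 against PC9 the values lie below 0 for 8 genes, and PMVK stands at 0.44.

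The entry of the pathway condenses acetyl-CoA units. ACAT2, the cytosolic thiolase that joins the first pair of them (chromosome 6, 159761957 to 159779112, hg38), stood at 180 and 184 TPM in PC9. Its libraries read 137 and 129 TPM for PC9-BrM4 and 287 and 271 TPM for PC9-AMG. The 3 lines were apart, and ACAT2 had the widest spread of all members, with PC9-AMG 2.102-fold above PC9-BrM4. It fell in PC9-BrM4 (log2 -0.45, SE 0.0493, limma adjusted p = 0.000318) and rose in PC9-AMG against PC9 (log2 0.61, SE 0.0493, limma adjusted p = 6.57e-05). Its gene model overlaps the end of TCP1, a chaperonin subunit on the other strand, by 615 bases. Whether the counting used strand is not recorded in the labels, so ACAT2 is uncertain to that extent. TCP1 was at 292 ± 7.26 TPM in PC9, 335 ± 5.44 TPM in PC9-BrM4 and 281 ± 5.004 TPM in PC9-AMG. It rose in PC9-BrM4 (log2 0.20, limma adjusted p = 0.00534), against the direction of ACAT2, and did not pass in PC9-AMG against PC9 (log2 -0.06, limma adjusted p = 0.281).

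HMGCS1, the cytosolic HMG-CoA synthase (chromosome 5, 43287470 to 43313512), stood at 225.0 and 230.4 TPM in PC9 and at 151 and 157 TPM in PC9-BrM4. The PC9-AMG libraries read 254 and 216 TPM, 1 above and 1 below both PC9 libraries. HMGCS1 fell in PC9-BrM4 by 0.56 on the log2 scale (SE 0.0729, limma adjusted p = 0.000695), the largest fall among the members. It did not pass in PC9-AMG against PC9 (log2 0.04, 95% interval -0.13 to 0.21, limma adjusted p = 0.676). The PC9-AMG libraries decide the sign of that value, which was -0.08 without replicate 1 (limma adjusted p = 0.238) and 0.16 without replicate 2 (limma adjusted p = 0.048), within 0.000231 to 0.944 over its alternatives. The ratio of ACAT2 to HMGCS1 was 0.799 and 0.798 for PC9, 0.907 and 0.821 for PC9-BrM4, and 1.13 and 1.26 for PC9-AMG.

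The middle of the pathway phosphorylates mevalonate and then removes a carboxyl group. MVK, the mevalonate kinase (chromosome 12, 109573695 to 109597270), stood at 74.7 and 82.5 TPM in PC9 and at 58.2 and 58.4 TPM in PC9-BrM4. In PC9-AMG it stood at 82.2 and 83.1 TPM, overlapping PC9. MVK fell in PC9-BrM4 (log2 -0.42, SE 0.0564, limma adjusted p = 0.000786) and did not pass in PC9-AMG against PC9 (log2 0.07, 95% interval -0.06 to 0.21, limma adjusted p = 0.301). MMAB, a cobalamin adenosyltransferase, starts 141 bases away in the other direction. Against 31.7 ± 1.52 TPM in PC9 it fell to 26.3 ± 0.0215 TPM in PC9-BrM4 (log2 -0.26, limma adjusted p = 0.00923) and rose to 36.4 ± 0.745 TPM in PC9-AMG (log2 0.20, limma adjusted p = 0.0227).

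PMVK, which adds the second phosphate (chromosome 1, 154924732 to 154937008), went against the other members in the comparisons that involve PC9-BrM4. In PC9-AMG against PC9, IDI1 fell as well. PMVK stood at 57.7 and 54.6 TPM in PC9, 76.0 and 76.5 TPM in PC9-BrM4, and 44.2 and 43.4 TPM in PC9-AMG, with no overlap between lines. PMVK rose in PC9-BrM4 (log2 0.44, SE 0.0496, limma adjusted p = 0.000387), fell in PC9-AMG against PC9 (log2 -0.35, SE 0.0496, limma adjusted p = 0.000829) and fell in PC9-AMG against PC9-BrM4 (log2 -0.79, SE 0.0496, limma adjusted p = 1.54e-05). It was the least abundant member in PC9 and PC9-AMG, while in PC9-BrM4 it lay above MVK. The ratio of PMVK to MVK was 0.772 and 0.661 for PC9, 1.31 and 1.31 for PC9-BrM4, and 0.538 and 0.522 for PC9-AMG. The share of PMVK in the sum of the 9 genes went from 2.38% to 2.56% in PC9 to 4.22% to 4.37% in PC9-BrM4 and 1.53% to 1.61% in PC9-AMG.

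MVD, the diphosphomevalonate decarboxylase that yields the first isoprenoid unit (chromosome 16, 88651940 to 88663149), stood at 191 and 198 TPM in PC9 and at 166 and 181 TPM in PC9-BrM4. In PC9-AMG it stood at 313 and 296 TPM, above all other libraries. MVD rose in PC9-AMG against PC9 by a log2 of 0.64 (SE 0.0546, limma adjusted p = 8.39e-05), the largest rise of a member in that comparison. Its fall in PC9-BrM4 was the smallest there (log2 -0.17, SE 0.0546, limma adjusted p = 0.0369). That call ended in 6 of 17 other settings, among them 3 that left out a library (PC9 replicate 1, 0.0813; PC9 replicate 2, 0.177; PC9-BrM4 replicate 1, 0.164 with a log2 of -0.11), within limma adjusted p of 0.00274 to 0.177. The ratio of MVD to PMVK, which act in succession, was 3.32 and 3.64 for PC9, 2.18 and 2.36 for PC9-BrM4, and 7.07 and 6.81 for PC9-AMG.

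The promoter windows of PMVK and of 3 members that fell in PC9-BrM4, where PMVK rose, are shown. They were chosen with their counts of 1 short motif known, so the contrast between their counts is not a test. Each window runs from 250 bases before to 50 bases after a gene start in RefSeq (GRCh38.p14), 5′ to 3′ on the strand of the gene. Windows were found for 6 of the 9 members. Where a gene has several, the one nearest the start in the deposited tables was taken. For PMVK the RefSeq start lies 289 bases from the deposited one, so the window does not reach the latter. For HMGCS1, MVK and MVD the distance is 100, 99 and 58 bases. The positions are chr1:154936670-154936969 for PMVK (minus strand), chr5:43313363-43313662 for HMGCS1 (minus strand), chr12:109573544-109573843 for MVK (plus strand) and chr16:88663042-88663341 for MVD (minus strand). Capitals mark the NF-Y box CCAAT, or ATTGG where it lies on the other strand.
PMVK: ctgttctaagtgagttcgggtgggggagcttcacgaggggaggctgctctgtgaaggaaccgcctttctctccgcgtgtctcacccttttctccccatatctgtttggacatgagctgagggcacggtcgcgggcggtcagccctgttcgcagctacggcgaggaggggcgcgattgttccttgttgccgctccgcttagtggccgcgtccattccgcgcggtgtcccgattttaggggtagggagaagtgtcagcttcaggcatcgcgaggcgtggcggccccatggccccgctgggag
HMGCS1: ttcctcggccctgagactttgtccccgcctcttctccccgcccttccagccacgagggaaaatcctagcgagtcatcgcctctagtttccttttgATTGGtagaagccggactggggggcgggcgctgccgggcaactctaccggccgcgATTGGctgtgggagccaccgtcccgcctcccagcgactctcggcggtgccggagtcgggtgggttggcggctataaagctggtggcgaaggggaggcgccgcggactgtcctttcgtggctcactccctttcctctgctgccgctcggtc
MVK: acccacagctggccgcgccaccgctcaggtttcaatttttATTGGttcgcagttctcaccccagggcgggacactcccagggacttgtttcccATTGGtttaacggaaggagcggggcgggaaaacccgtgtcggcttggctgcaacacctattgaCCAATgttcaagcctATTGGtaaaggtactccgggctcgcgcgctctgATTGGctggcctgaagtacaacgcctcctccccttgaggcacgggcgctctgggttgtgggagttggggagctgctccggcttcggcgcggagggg
MVD: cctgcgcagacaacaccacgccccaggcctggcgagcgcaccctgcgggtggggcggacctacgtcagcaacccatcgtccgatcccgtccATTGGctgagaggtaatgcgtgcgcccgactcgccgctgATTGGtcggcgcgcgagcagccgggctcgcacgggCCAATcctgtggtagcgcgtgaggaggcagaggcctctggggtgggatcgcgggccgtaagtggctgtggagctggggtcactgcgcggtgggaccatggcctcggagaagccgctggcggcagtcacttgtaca

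The CCAAT letters were present 0 times in the PMVK window, 2 times in that of HMGCS1, 5 times in that of MVK and 3 times in that of MVD. The windows of IDI1 and FDPS, not printed, held them 2 and 3 times. In all, 5 of the 6 windows held at least 2 matches on either strand, where 34.6% of 35116 windows of this length in RefSeq held at least 1 and 10.8% at least 2. Of the windows of enzymes from lanosterol to cholesterol, 8 of 10 held at least 1 match. The same held for 5 of 12 windows of isoprenoid branch genes and 3 of 8 of SREBP control genes. The Sp1 box GGGCGG was found in 6 of the 6 windows and in 45.0% of all. The sterol element letters TCACNCCAC, where N is any base, were found in 0 of the 6 and in 1.13% of all. Each motif was searched on both strands and counted on its own. The MVK window also covers the start of MMAB. In HMGCS1 the CCAAT matches begin 155 and 100 bases before the start, and in MVD 159, 120 and 85 bases before it. These are matches of letters in a fixed window, and their absence says nothing of the factors. Whether they bear on the direction of PMVK was not tested.

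Next come the isomerase and the prenyl synthase, IDI1 and FDPS. IDI1 (chromosome 10, 1040024 to 1049121) stood at 311 and 316 TPM in PC9, 235 and 233 TPM in PC9-BrM4, and 282 and 248 TPM in PC9-AMG. Both sublines lay below PC9. IDI1 fell in PC9-BrM4 (log2 -0.42, SE 0.0601, limma adjusted p = 0.00113) and in PC9-AMG against PC9 (log2 -0.24, SE 0.0601, limma adjusted p = 0.0107). Leaving out PC9 replicate 2 ended the second call (limma adjusted p = 0.056, within 0.00298 to 0.123 over its alternatives). The value was -0.33 without PC9-AMG replicate 1 and -0.15 without PC9-AMG replicate 2, both still called (limma adjusted p = 0.00298 and 0.037). IDI1 was higher in PC9-AMG than in PC9-BrM4 by 0.18 (SE 0.0601, limma adjusted p = 0.0385), a call that ended in 9 of 17 other settings (limma adjusted p from 0.000429 to 0.167). Among these were 5 that left out a library (PC9 replicate 1, 0.0587; PC9 replicate 2, 0.0591; PC9-BrM4 replicate 1, 0.107; PC9-BrM4 replicate 2, 0.127; PC9-AMG replicate 1, 0.167 with a log2 of 0.08), and the value was 0.27 without PC9-AMG replicate 2. Its relative IDI2 was listed at 0 in all 6 libraries.

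FDPS, which joins isoprenoid units to farnesyl diphosphate (chromosome 1, 155308748 to 155320666), was the most abundant member in every line. It stood at 545 and 535 TPM in PC9, 451 and 412 TPM in PC9-BrM4, and 785 and 747 TPM in PC9-AMG. The lines were apart, and FDPS fell in PC9-BrM4 (log2 -0.32, SE 0.0522, limma adjusted p = 0.00191) and rose in PC9-AMG against PC9 (log2 0.50, SE 0.0522, limma adjusted p = 0.000193). The ratio of FDPS to IDI1 ranged over 1.69 and 1.75 in PC9, 1.77 to 1.91 in PC9-BrM4, and 2.78 to 3.01 in PC9-AMG. FDPS has processed copies elsewhere in the genome. The one listed under its own symbol, FDPSP2, lay at 0.187 to 0.433 TPM. FDPS and PMVK lie 372 kilobases apart on chromosome 1 and moved in opposite directions in each comparison.

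The last members make squalene and its epoxide, the first products committed to sterols. FDFT1, the squalene synthase (chromosome 8, 11795573 to 11839309), stood at 467 and 480 TPM in PC9, 385 and 357 TPM in PC9-BrM4, and 557 and 547 TPM in PC9-AMG. It fell in PC9-BrM4 (log2 -0.35, SE 0.0461, limma adjusted p = 0.000741) and rose in PC9-AMG against PC9 (log2 0.22, SE 0.0461, limma adjusted p = 0.00488). SQLE, the squalene epoxidase (chromosome 8, 124998478 to 125022283), stood at 206 and 214 TPM in PC9, 141 and 149 TPM in PC9-BrM4, and 283 and 253 TPM in PC9-AMG. It fell in PC9-BrM4 (log2 -0.53, SE 0.0609, limma adjusted p = 0.000408) and rose in PC9-AMG against PC9 (log2 0.35, SE 0.0609, limma adjusted p = 0.00219). For both genes the lines were apart.

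Between the sublines, PC9-AMG was above PC9-BrM4 by a log2 of 1.07 for ACAT2, 0.88 for SQLE, 0.83 for FDPS and 0.81 for MVD (limma adjusted p = 4.25e-06, 2.36e-05, 1.54e-05 and 2.06e-05). The differences were 0.60 for HMGCS1, 0.57 for FDFT1 and 0.50 for MVK (limma adjusted p = 0.000341, 4.66e-05 and 0.000248). PMVK differed by -0.79 and IDI1 by 0.18, as given above. Replicates of a line differed least in PC9, with a median absolute log2 difference of 0.0389 over the members, beside 0.0727 in PC9-BrM4 and 0.0801 in PC9-AMG. The widest gap was that of HMGCS1 in PC9-AMG, at 0.234. In PC9-AMG 8 of the 9 members were higher in replicate 1 than in replicate 2, as against 4 in PC9-BrM4 and 2 in PC9.

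Within a line, TPM allows genes to be ranked per length. In PC9 the order from high to low was FDPS, FDFT1, IDI1, HMGCS1, SQLE, MVD, ACAT2, MVK and PMVK, with the libraries of each pair of neighbours apart. In PC9-BrM4 neighbours were apart as well, and MVD ranked above HMGCS1 and PMVK above MVK. In PC9-AMG the order was FDPS, FDFT1, MVD, ACAT2, SQLE, IDI1, HMGCS1, MVK and PMVK. There ACAT2 and SQLE, SQLE and IDI1, and IDI1 and HMGCS1 did not differ beyond the range of their libraries.

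HMGCS1 and IDI1 lay among genes that were mostly lower in PC9-AMG. Over all tested genes, 27.7% were called lower and 27.8% higher in PC9-AMG against PC9, with a median log2 fold change of -0.006. Of 30 other tested genes within 5 Mb of HMGCS1, 25 were called lower and 1 higher in PC9-AMG against PC9, with a median log2 fold change of -0.55. Of 23 within 5 Mb of IDI1, 12 were called lower and 1 higher, with a median of -0.33. Around MVD 33 of 70 were lower and 13 higher (median -0.15), and around ACAT2 the median was -0.04. Around PMVK, which itself fell, 29 of 165 were lower and 59 higher, with a small median of 0.07. An alternative subtracted, in each library, the median of these neighbours' centred log2 values, a median of levels that differs somewhat from the median of their fold changes. It removed -0.59 for HMGCS1 and -0.40 for IDI1. HMGCS1 then stood at 0.63 (limma adjusted p = 0.000231) and IDI1 at 0.16 (limma adjusted p = 0.123), within 0.000231 to 0.944 and 0.00298 to 0.123 over their alternatives. PMVK went from -0.35 to -0.44 under the same setting. Between the sublines the same setting gave 1.13 for HMGCS1, 0.68 for IDI1 and 1.07 for MVD, and in PC9-BrM4 against PC9 it gave -0.29 for MVD. MMAB went from 0.20 to 0.13 in PC9-AMG against PC9. The part of the regions in these values was not tested.

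**Figure D3:**
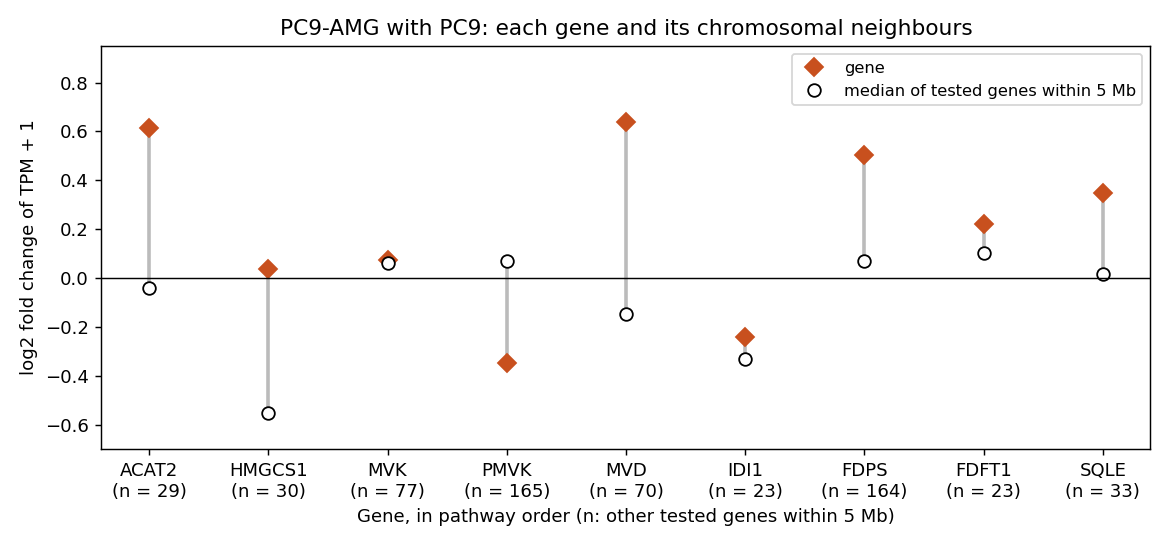
Log2 fold change of TPM + 1 in PC9-AMG against PC9 for each gene (diamond) and the median of the other tested genes within 5 Mb (circle), with their number under the name. The circles of HMGCS1 and IDI1 lie at -0.55 and -0.33, and PMVK lies below a circle at 0.07.

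Genes around the pathway were read from 4 further lists. Of 11 enzymes from lanosterol to cholesterol, 7 fell, 0 rose and 4 did not pass in PC9-BrM4 against PC9 (median log2 -0.41). In PC9-AMG against PC9, 9 rose and 0 fell (median 0.53), and in PC9-AMG against PC9-BrM4 11 of 11 rose (median 0.85). Over all tested genes, 23.1% were called lower in the first of these comparisons, and 27.8% and 28.1% higher in the others. The sterol reductase TM7SF2 led in each case, at 36.3 ± 0.425 TPM in PC9, 20.5 ± 0.741 TPM in PC9-BrM4 and 66.1 ± 0.910 TPM in PC9-AMG. The log2 fold changes of TM7SF2 were -0.80, 0.85 and 1.64 (limma adjusted p = 3.93e-05, 2.62e-05 and 9.82e-07).

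Genes that supply acetyl-CoA, with mitochondrial relatives of the pathway and IDI2, had 5 tested members of 7. In PC9-BrM4 3 fell and 0 rose (median log2 -0.19). In PC9-AMG against PC9 3 rose and 1 fell. ACSS2, which makes acetyl-CoA from acetate, rose from 85.2 ± 0.0995 to 123 ± 6.28 TPM (log2 0.52, limma adjusted p = 0.000124). In PC9-AMG against PC9-BrM4 4 rose and 0 fell, led by ACSS2 (log2 0.72, limma adjusted p = 2.2e-05). These counts of 5 genes stand beside 46.6%, 55.5% and 56.1% of all tested genes called in the 3 comparisons.

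Of 10 genes that control SREBP processing and sterol supply, 6, 7 and 6 were called in the 3 comparisons. These counts lay somewhat above the shares over all tested genes (46.6%, 55.5% and 56.1%). Of the 10 genes, 5 fell and 1 rose in PC9-BrM4, led by STARD4, a sterol carrier, at 9.52 ± 0.389 against 31.4 ± 0.579 TPM (log2 -1.62, limma adjusted p = 3.29e-05). SCAP, which escorts SREBP out of the endoplasmic reticulum, was the one that rose, from 40.6 ± 0.194 to 51.3 ± 4.95 TPM (log2 0.32, limma adjusted p = 0.00696). In PC9-AMG against PC9 5 rose and 2 fell, with the site-1 protease MBTPS1 falling from 72.4 ± 1.55 to 51.3 ± 2.08 TPM (log2 -0.49, limma adjusted p = 0.000313). In PC9-AMG against PC9-BrM4 5 rose and 1 fell, led by STARD4 (log2 2.09, limma adjusted p = 5.79e-06) and MBTPS1 (log2 -0.19, limma adjusted p = 0.0211). Over all tested genes, 23.1% were called lower and 23.4% higher in PC9-BrM4 against PC9. The shares were 27.7% and 27.8% in PC9-AMG against PC9, and 28% and 28.1% between the sublines. With the regional median removed, MBTPS1 went to -0.23 in PC9-AMG against PC9 and turned to 0.20 between the sublines. SREBF2, the gene of SREBP2, is named here after its values were seen. It was lower in PC9-BrM4, at 117 ± 5.95 against 149 ± 0.141 TPM (log2 -0.34, limma adjusted p = 0.00244) and stood at 158 ± 9.95 TPM in PC9-AMG (log2 0.08, limma adjusted p = 0.243).

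The branches that use farnesyl diphosphate or isoprenoid units for other products were read from 15 genes. Of these genes 7, 9 and 8 were called, near the shares over all tested genes (46.6%, 55.5% and 56.1%). Among them 6 rose and 1 fell in PC9-BrM4 (median 0.13), 5 rose and 4 fell in PC9-AMG against PC9 (median -0.01), and 3 rose and 5 fell in PC9-AMG against PC9-BrM4 (median -0.10). PDSS1, a subunit of the synthase that builds the coenzyme Q side chain, led the rises in PC9-BrM4 and the falls in PC9-AMG. The 3 lines had 17.7 ± 0.867 TPM in PC9, 28.9 ± 0.850 TPM in PC9-BrM4 and 11.2 ± 0.630 TPM in PC9-AMG, in the same order of lines as PMVK. Its log2 fold changes were 0.68, -0.61 and -1.29 (limma adjusted p = 0.000293, 0.000347 and 9.41e-06). With the regional median removed, these values of PDSS1 were 0.75, -0.02 and -0.77. FNTB, the beta subunit of farnesyltransferase, fell from 42.0 ± 2.48 to 34.8 ± 0.875 TPM in PC9-BrM4 (log2 -0.26, limma adjusted p = 0.00907), and FNTB stood at -0.17 with the regional median removed. TRIT1, which adds an isopentenyl group to transfer RNA, rose from 43.9 ± 3.37 to 71.9 ± 0.427 TPM in PC9-AMG (log2 0.70, limma adjusted p = 8.39e-05), a value that was 0.15 with the regional median removed for TRIT1.

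**Figure D4:**
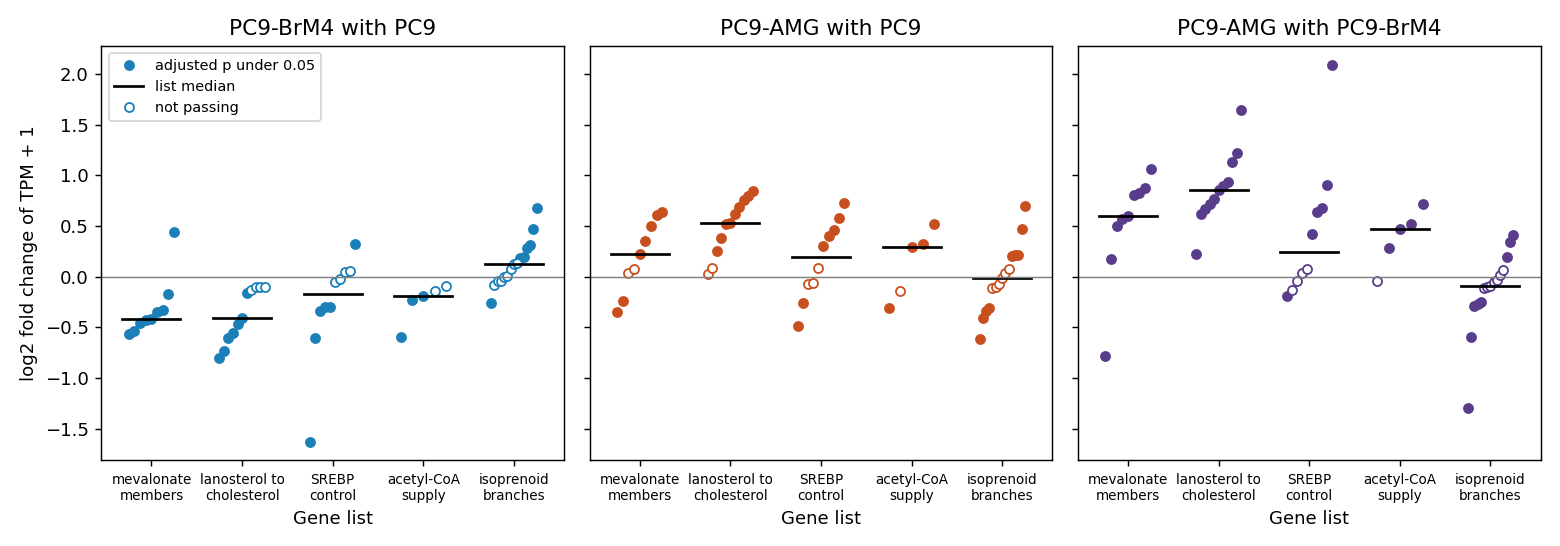
Log2 fold change of TPM + 1 for each tested gene of the 5 lists in the 3 comparisons, with filled points for limma adjusted p under 0.05, open points for the others, and a bar at the list median. The members and the lanosterol list have medians of -0.42 and -0.41 in PC9-BrM4 against PC9, and the isoprenoid branches 0.13.

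Among the members that were called with a log2 change of at least 0.5 in some comparison, the genes outside the members with the most similar profile were sought. Likeness was the root mean square difference of log2 values centred on the gene's mean, over 6 libraries. For SQLE the nearest were STAT2 (0.0317) and INSIG1 (0.035), the latter a sterol sensor that retains SCAP. For PMVK they were GSPT1 (0.0228), at 106 TPM in PC9, 139.9 TPM in PC9-BrM4 and 83.1 TPM in PC9-AMG, and DTL (0.038). For ACAT2 they were TOB1 (0.0415) and ANXA2 (0.0495), and for HMGCS1 PSMD5-AS1 (0.03), an antisense RNA whose reads cannot be told from those of its partner without strand, and CCNT1 (0.0372). For FDPS they were RND3 (0.0381) and MEST (0.0392), and for FDFT1 ZNF615 (0.0166) and SEC61B (0.0279). The points are 6 libraries of 3 lines, so the likeness is mainly that of 3 means.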

How the data were processed

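Libraries were made from TRIzol RNA with a stranded mRNA kit, per the labels' protocols. HISAT2 2.1.0, StringTie 1.3.4d, bcl2fastq and the build hg38 are listed in the submitters' processing notes, with no role for each. No annotation or strand setting is recorded there. The authors deposited TPM, FPKM and mean coverage (a signal) per gene for each library, per the file headers. Coverage over FPKM gave the aligned gigabases. Read counts were not recovered, so no counting interval is given. The series-wide table was left out, since the PC9-AMG labels match none of its columns.

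TPM of lines sharing a symbol were summed and taken to log2(TPM + 1), a scale that understates the change of low genes. Genes with at least 1 TPM in at least 2 of 6 libraries (14195) were fitted with 1 mean per line over all libraries, in limma 3.58.1 (R 4.3.3) with a mean-variance trend, 3 residual degrees of freedom and a threshold of 0.05. The fit was run on simulated independent values with known changes. That run checks the code and not the calibration of the p-values given here. Each result was recomputed under 17 alternatives. Replicates had 0 identical values above 0. Their chi-square per gene, computed on FPKM, was 3.45 to 11.9 times as high in the most abundant quintile as in the least abundant. On FPKM and without counts this value also depends on transcript length, so it cannot show whether the libraries are independent. Each was kept as a library of its own.

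Members and lists were chosen with earlier results of these data known. The genes named are the members, MMAB and TCP1 as neighbours of members, the called gene of largest change in each direction per list and comparison, and the 2 nearest profiles per member. Some genes that this rule covers are not reported here.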

Additional observations from a re-analysis of the deposited data

How the results depend on the processing

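Of 27 differences (9 members in 3 comparisons), 23 kept their direction and their side of the threshold in all 17 alternative settings. The others were MVD in PC9-BrM4 against PC9, HMGCS1 and IDI1 in PC9-AMG against PC9, and IDI1 between the sublines. HMGCS1 in PC9-AMG against PC9 ranged from -0.079 to 0.156 (log2) with a library left out, and IDI1 there turned to 0.159 with the regional median removed, where the cause was not tested. Members called in PC9-BrM4 against PC9 numbered 8 or 9, in PC9-AMG against PC9 6 to 8, and between the sublines 8 or 9. Genes called over all tested numbered 4604 to 6313, 6013 to 8069 and 6499 to 7534 with a library left out, in the same order, beside 6608, 7882 and 7962. A lone library left in a line is then assumed to vary like the others. The replicate numbers shared by the lines carried no large shared effect (correlations of the replicate differences between lines -0.069, -0.028 and -0.063). These correlations cannot show whether libraries were paired in culture or preparation. With the replicate block, 6126, 7457 and 7599 genes were called, and of the member calls MVD in PC9-BrM4 against PC9 was lost (limma adjusted p = 0.0555). The 2 libraries per line limit the precision of each value.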
